A study of Saccharomyces cerevisiae with 167 samples.

Results

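Messenger RNA of budding yeast (Saccharomyces cerevisiae) in stationary phase was compared with that of cells in log phase on 3 dual-colour arrays, out of 167 arrays in the series. The arrays were taken by their labels: on each, total RNA of stationary phase cells was in Cy5 and total RNA of log phase cells was in Cy3. Each array carried 13029 probes, of which the 6269 probes for open reading frames (ORFs) were used as the genes. Set beside them were 3 arrays of total RNA from heat-shocked cells (Cy5) against unstressed cells (Cy3), 3 arrays of chromatin taken with histone H4 and 3 taken with acetylated H4, both from stationary phase cells (Cy5) against log phase cells (Cy3). The labels give neither strain, medium nor time in culture for the expression arrays, and no dyes were exchanged, so that a dye effect and the change of state cannot be told apart. Whether the 3 sets are separate cultures is not in the labels, so the p-values measure only the spread between arrays, which may be technical. H4 was pulled down with an anti-Myc tag antibody, and the label of the acetylated H4 arrays names the same antibody, so the identity of that material was not settled by the labels.

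A yeast culture that has used up its nutrients stops dividing and enters stationary phase. Growth in log phase is carried by ribosome synthesis, which takes up a large share of transcription, whereas starved cells are known for stress-protective proteins, storage sugars, recycling of cell contents in the vacuole and the use of poor carbon and nitrogen sources. Genes of amino acid synthesis answer to Gcn4, those of poor nitrogen sources to GATA factors such as Gln3 and Gat1, those of sulfur assimilation to Met4, and many oxidant and drug resistance genes to Yap1.

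Values are log2 ratios of stationary over log phase, so that 1 is 2-fold higher and -1 is 2-fold lower. The median ratio of all probes on an array was subtracted from its values, and a ratio is therefore relative to the typical probe. A change shared by all transcripts, such as less RNA per cell, would not be seen. Of the 6269 ORF probes 2211 (35.3%) passed an adjusted p of 0.05 in limma's test against 0, 1102 higher (17.6%) and 1109 lower (17.7%). At least 2-fold were 466 higher (7.43%) and 372 lower (5.93%). Without array 1 the 2211 fell to 1284 (637 higher and 647 lower), while the count of at least 2-fold was 852 against 838. Counts of list members without array 1 are to be read beside this loss over all ORF probes. Correlations between arrays across the 6269 ORF probes were 0.82, 0.873 and 0.791, and the median SD over arrays was 0.25. On every array 318 ORF probes were at least 2-fold higher and 238 at least 2-fold lower. ACT1, which encodes actin, had log2 ratios of 0.25, -0.21 and 0.12 and did not pass the test.

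**Figure D1:**
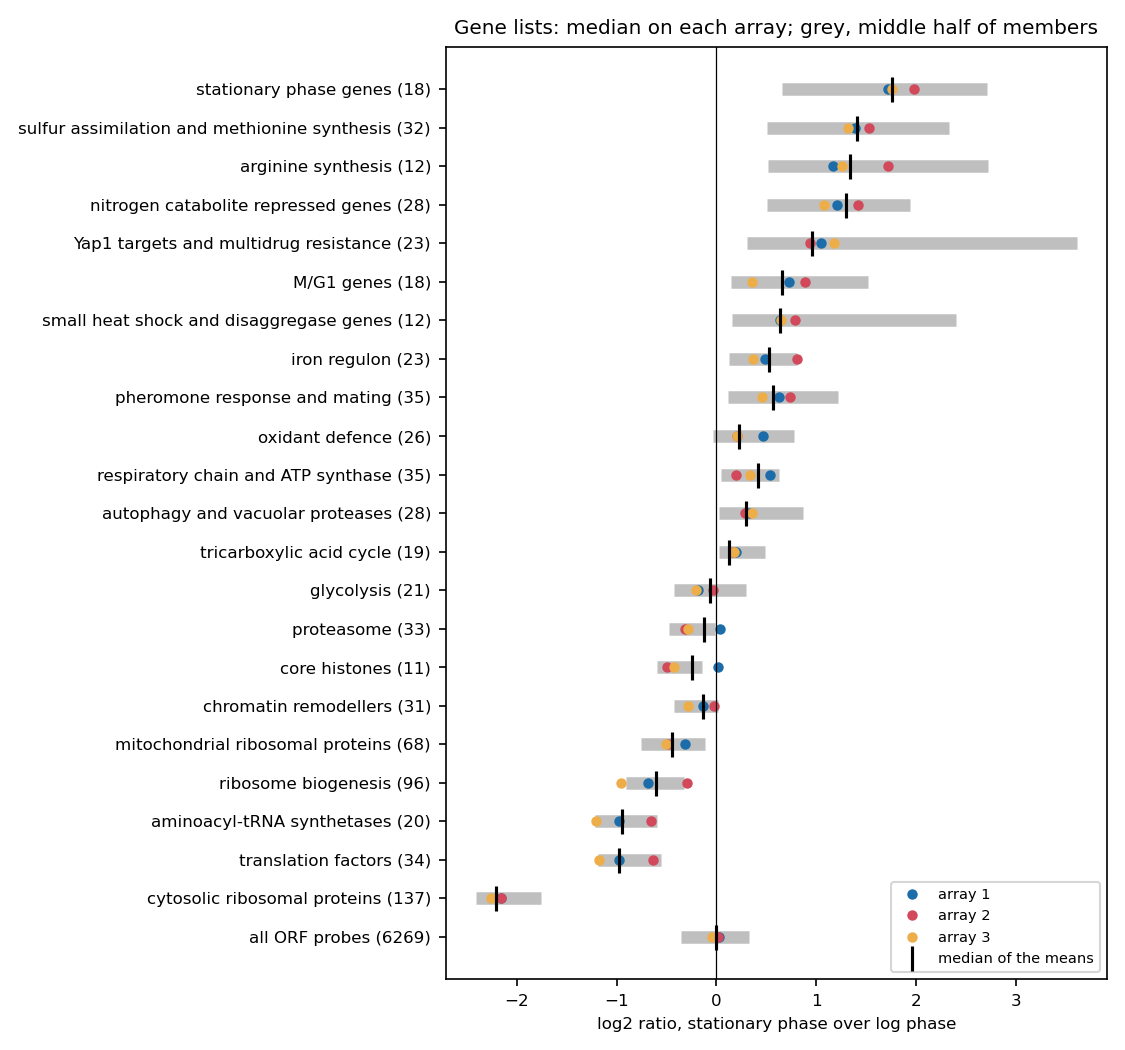
Median log2 ratio (stationary over log phase) of the members of gene lists and of all ORF probes on each of the 3 arrays (points), with the median of the members' means (bar) and the middle range of members from the 25th to the 75th percentile (grey); the number of members is in parentheses. Stationary phase, sulfur, arginine and nitrogen lists lie highest, and cytosolic ribosomal proteins lie lowest at a median of -2.21.

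Genes of sulfur assimilation and methionine synthesis were among the most strongly raised. Of 32 measured members 25 rose and 1 fell, with a median log2 ratio of 1.41 against -0.00418 over all ORF probes. STR3, which makes homocysteine from cystathionine, had log2 ratios of 3.80, 4.32 and 3.71 and rose 15.4-fold (adjusted p = 2.23e-06). MET1, whose product makes the siroheme of sulfite reductase, had 4.01, 3.69 and 3.39, and MET10, a sulfite reductase subunit, had 3.53, 4.09 and 3.08. MET28, a cofactor of Met4, had 3.28, 2.11 and 3.10, and MET30, the ubiquitin ligase subunit that restrains Met4, had 2.86, 3.37 and 2.63. All 3 arrays stood far above 0 for each of these. MET8, which finishes siroheme, went the other way, with -0.24, -0.79 and -0.83, and its call was lost without array 2 (adjusted p = 0.0763) and without array 3 (adjusted p = 0.121). On the heat shock arrays the list had a median of -0.185, with 4 members higher and 8 lower, against 16.6% and 18.0% of all ORF probes. The stationary change was higher than the heat shock change for 23 members and lower for 0, against 11.0% and 8.53% in the test of the difference.

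Arginine synthesis was raised along most of its enzymes while the genes of arginine breakdown were lowered. Of 12 measured synthesis genes 8 rose and 0 fell, all 8 at least 2-fold. ARG1, argininosuccinate synthetase, had log2 ratios of 3.16, 3.65 and 2.80, and CPA1, the small subunit of carbamoyl phosphate synthetase, had 2.87, 3.27 and 2.85. ARG3, ARG8 and ARG4, which act in the ornithine and arginine steps, averaged 2.89 ± 0.31, 2.66 ± 0.07 and 2.44 ± 0.34 (SD, n = 3). ARG7 averaged 1.60, the regulator ARG80 1.07 and ARG2 1.03. ORT1, ARG81 and ARG82 had means of 0.56, 0.39 and 0.33 and did not pass the test (ORT1 passed without array 2, adjusted p = 0.00711). CAR1, arginase, had -2.23, -1.66 and -2.36 and fell 4.23-fold (adjusted p = 3.61e-05), and CAR2, the next enzyme, had -1.24, -1.16 and -1.41 (adjusted p = 0.000287). On the heat shock arrays CAR1 had 0.91, 1.28 and 0.87, and ARG4 had -1.66, -1.26 and -1.82. PUT1 and PUT4, which take up and break down proline, averaged 2.42 and 1.55. Other lists of amino acid synthesis had smaller shares that rose. Among 13 branched, 8 lysine and 21 histidine, tryptophan and aromatic genes 4, 2 and 5 rose and 0, 1 and 1 fell. The shares that rose were 30.8%, 25% and 23.8%, against 17.6% of all ORF probes.

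Genes repressed by good nitrogen sources rose as well. Of 28 members 21 rose and 0 fell, with a median log2 ratio of 1.30. MEP2, an ammonium permease, had log2 ratios of 2.68, 3.55 and 2.72, and its relative MEP1 averaged 2.13 ± 0.45 (SD, n = 3). GAP1, the general amino acid permease, had 2.13, 2.23 and 1.74. UGA2, of GABA use, and DAL3, of allantoin use, averaged 2.57 ± 0.35 and 2.17 ± 0.25 (SD, n = 3). The change was higher than after heat shock for 18 of the 28, against 11.0% of all ORF probes. TAT1, a permease for bulky and branched amino acids, was among the largest falls of all, with -3.16, -2.18 and -2.94 (6.78-fold lower).

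Genes of biotin uptake and synthesis rose, and of these all but VHT1 were picked after their values were seen. VHT1, the biotin importer, had log2 ratios of 3.63, 4.53 and 3.19. BIO3 and BIO4, adjacent genes of the biotin pathway that share a promoter probe, averaged 3.74 ± 0.44 and 3.12 ± 0.26 (SD, n = 3). BIO2, biotin synthase, averaged 2.56 ± 0.08 and BIO5, a transporter of a precursor, 2.46 ± 0.14. On the heat shock arrays VHT1 averaged -0.61 and BIO2 -0.88. In vitamin B6 synthesis, SNZ1 had 2.78, 4.21 and 3.80 and its partner SNO1 had 2.53, 3.30 and 2.79, whereas SNZ1 averaged 0.37 after heat shock. PHO3, an acid phosphatase that acts on thiamine phosphates, had -2.29, -2.16 and -2.49. Of 23 genes of vitamins B1 and B6, 7 rose and 2 fell (30.4% and 8.7%, against 17.6% and 17.7% of all ORF probes). Without array 1 the 7 became 4.

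**Figure D2:**
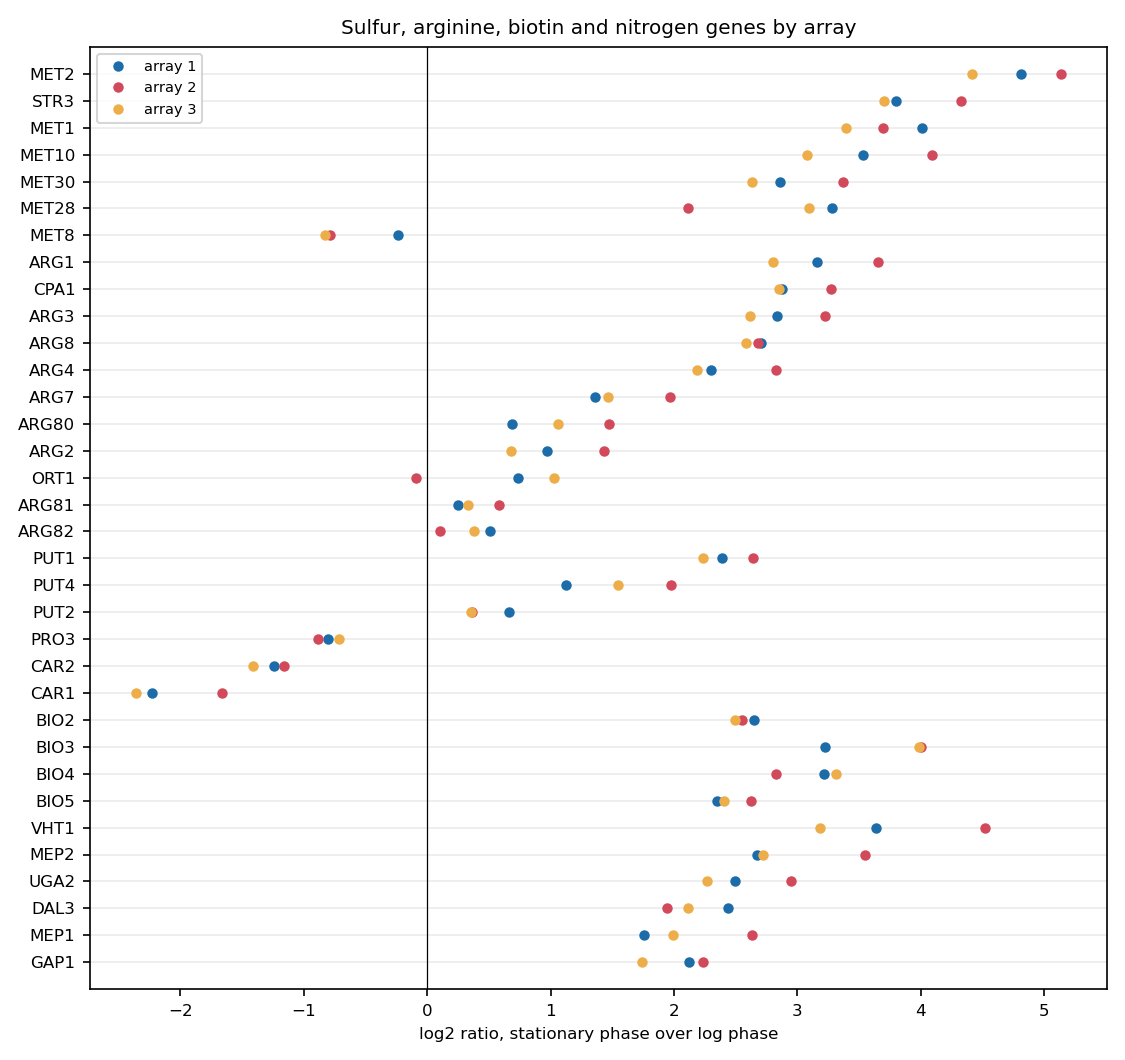
Log2 ratios (stationary over log phase, horizontal axis) of genes of sulfur, arginine, proline, biotin and nitrogen metabolism, with 1 point for each of the 3 arrays. CAR1, CAR2, PRO3 and MET8 lie below 0 on every array, and MET2, STR3, MET1 and MET10 lie above 3 on every array.

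Oxidant and drug resistance genes gave several of the largest rises. Of 23 members of the Yap1 and multidrug list 15 rose and 1 fell (median 0.956). The aryl alcohol dehydrogenase genes AAD6 and AAD10 had log2 ratios of 4.05, 4.23 and 4.12 and of 3.67, 3.66 and 3.60. GTT2, a glutathione transferase, had 4.50, 3.46 and 3.86, and ECM4, a glutathione transferase of another class, had 3.70, 4.65 and 3.85. FLR1, a drug exporter, had 3.70, 3.60 and 3.67, and GSH1, which begins glutathione synthesis, had 3.18, 2.92 and 2.56. FLR1 averaged 0.01 and GSH1 -0.59 after heat shock, with no overlap between the groups. In the separate list of oxidant defence, to which GSH1 belongs, 10 of 26 rose and 4 fell (median 0.226). These are 38.5% and 15.4%, against 17.6% and 17.7% of all ORF probes, and 7 rose and 1 fell without array 1. The peroxidase genes TSA2, GPX1 and PRX1 averaged 2.03, 1.51 and 1.47, beside 2.69, 2.12 and 1.83 after heat shock. GPX2, a glutathione peroxidase, GRX5, a mitochondrial glutaredoxin, TRX1, thioredoxin, and TRR1, its reductase, fell, with means of -0.89, -0.55, -0.55 and -0.44. TRX1 and TRR1 were lost with any of the 3 arrays left out (adjusted p 0.0647 to 0.0949 and 0.101 to 0.165), and GRX5 without array 1 (adjusted p = 0.118) and array 2 (adjusted p = 0.106), so that 1 fell without array 1, 1 without array 2 and 2 without array 3. Members of the AAD family are close in sequence, and a double-stranded ORF probe may take up RNA of a relative. The ORF YNL276C, which lies against MET2 and is not in the annotation used, had 4.47, 4.08 and 4.14, and its signal cannot be told apart from that of an overlapping gene.

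Among the classical stationary phase genes 14 of 18 rose and 0 fell (median 1.76). Among the 15 largest rises of all ORF probes, GRE1, a hydrophilin gene of osmotic stress, had log2 ratios of 4.33, 4.42 and 4.06. RTS3, linked to protein phosphatase 2A, and YML131W, a reductase-like gene, had 3.94, 3.74 and 3.97 and 3.79, 4.27 and 3.93. HXT5, a hexose transporter, had 3.22, 3.41 and 2.94, while HXT2, another of the family, had -1.90, -1.30 and -1.86. Of the 18 hexose transporters and sensors 2 rose (11.1%) and 1 fell (5.56%), against 17.6% and 17.7% of all ORF probes. Without array 1 only 1 rose, and 1 without array 2. SSA3, a stress-induced Hsp70, averaged 0.14 ± 0.03 (SD, n = 3) and did not pass the test.

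In some paralog pairs of central carbon metabolism 1 member rose and the other fell, and in others they did not. TDH1, a glyceraldehyde phosphate dehydrogenase, had log2 ratios of 2.48, 2.90 and 2.46, whereas its relatives TDH2 and TDH3 averaged -0.45 and -0.17 and did not pass the test (TDH2 passed without array 2, adjusted p = 0.0386). PGM2, the major phosphoglucomutase, averaged 1.08 and PGM1 -1.39. GPP2 and GPP1, glycerol phosphatases, averaged 0.94 and -1.03. HXK2, hexokinase of growth on glucose, had -1.36, -0.59 and -1.61, while HXK1 and GLK1 averaged -0.07 and 0.28. ADH1, the alcohol dehydrogenase of fermentation, had -2.05, -2.33 and -1.96, and ADH2, the ethanol-consuming one, had -1.77, -2.11 and -2.07. Both enolase genes were above 0, ENO1 with a mean of 0.35, which did not pass the test, and ENO2 with 0.50, which was lost without array 1 (adjusted p = 0.19) and without array 2 (adjusted p = 0.113). GPD1 and GPD2, glycerol phosphate dehydrogenases, averaged -0.12 and -0.10 and did not pass the test. The ADH1 and ADH2 coding sequences are near identical, and their probes cannot be taken as separate measurements. ADH1 averaged 0.94 and ADH2 0.75 after heat shock.

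In the mitochondrion and peroxisome, a small number of genes moved strongly while most did not pass the test. CIT2, the peroxisomal citrate synthase, had log2 ratios of 3.12, 2.72 and 2.80, against means of 0.67 for mitochondrial CIT1 and 0.50 for CIT3; CIT1 was lost without array 1 (adjusted p = 0.148) and without array 3 (adjusted p = 0.0515), and CIT3 passed without array 3 (adjusted p = 0.0473). YAT2, a carnitine acetyltransferase, had 3.01, 3.14 and 2.77, and the second, YAT1, averaged 1.10. Of 17 genes of fatty acid oxidation 4 rose (23.5%) and 0 fell, and of 19 genes of the tricarboxylic acid cycle 4 rose (21.1%) and 0 fell. The shares that rose were near the 17.6% of all ORF probes, whereas 0 fell in either list, against 17.7% of all ORF probes. Of 35 genes of the respiratory chain and ATP synthase 12 rose and 3 fell. These are 34.3% and 8.57%, against 17.6% and 17.7% of all ORF probes. Without array 1 the 12 became 5, while the count that rose over all ORF probes went from 1102 to 637. NDE2, an external NADH dehydrogenase, averaged 1.82 while NDE1, its relative, averaged -1.42. COX5A and COX5B, alternative forms of a cytochrome oxidase subunit, averaged 0.67 and 0.74, and both were lost without array 1 (adjusted p = 0.123 and 0.201) and without array 3 (adjusted p = 0.0522 and 0.112). Both cytochrome c genes fell. CYC1 had -1.45, -1.76 and -1.38 and CYC7 had -0.78, -1.65 and -1.34, while CYC7 had 2.58, 1.75 and 2.51 after heat shock. The gluconeogenesis genes PCK1, FBP1 and ICL1, taken up after their values were seen, averaged 0.31, -0.08 and 0.29, and none of these passed the test. In the list of gluconeogenesis and C2 use 3 of 18 rose and 2 fell (16.7% and 11.1%, against 17.6% and 17.7% of all ORF probes). DAL7, IDP2 and ALD4 rose, with means of 1.88, 1.55 and 1.00. ADH2 and JEN1 fell, with -1.98 and -0.81, and JEN1 was lost without array 1 (adjusted p = 0.0862) and array 2 (adjusted p = 0.0721). Of the 5 aldehyde dehydrogenases 4 rose, with ALD3 at 1.86, ALD2 at 1.81, ALD5 at 1.35 and ALD4 at 1.00, and ALD6 at -0.44 did not pass the test. ALD2 and ALD3 averaged 4.80 and 4.89 after heat shock.

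Heat shock and stationary phase shared a part of the response of chaperone and other heat shock genes. For HSP26, HSP31 and HSP30 the changes under the 2 states overlapped, and HSP31 had log2 ratios of 3.58, 3.23 and 3.46 in stationary phase and 3.14, 3.28 and 2.94 after heat shock (difference 0.30, adjusted p = 0.453). HSP12 had 2.35, 2.22 and 2.08, against 4.04, 4.08 and 4.08 after heat shock. The Hsp90 genes HSP82 and HSC82 and the mitochondrial chaperonin genes HSP60 and HSP10 rose after heat shock and did not pass the test in stationary phase. HSP82 had 0.43, 0.45 and -0.26 in stationary phase and averaged 3.46 after heat shock, and HSC82, HSP60 and HSP10 averaged -0.39, -0.16 and -0.45 in stationary phase and 2.94, 3.02 and 3.02 after heat shock. CPR6, a cyclophilin that works with Hsp90, had 0.76, 0.53 and 0.28 in stationary phase and averaged 4.38 after heat shock, and its stationary call was lost without array 1 (adjusted p = 0.244) and without array 2 (adjusted p = 0.0695). SSC1, the mitochondrial Hsp70, fell, with -1.01, -0.74 and -1.38, and averaged 1.33 after heat shock. In a list of 12 heat shock genes 7 rose in stationary phase (58.3%, against 17.6% of all ORF probes). After heat shock all 12 rose, against 16.6% of all ORF probes. In the test of the difference 7 of the 12 were lower in stationary phase, against 8.53% of all ORF probes. The list holds HSP82, HSC82, SSA4, HSP30, HSP31, HSP32 and HSP33 beside small heat shock and disaggregase genes. The disaggregase genes HSP104 and HSP78 averaged -0.16 and 0.31 in stationary phase and did not pass the test. HSP33 rose, with a mean of 0.46, and was lost with any array left out (adjusted p 0.0919 to 0.14). Of 14 Hsp70 family genes 4 rose and 5 fell in stationary phase (28.6% and 35.7%, against 17.6% and 17.7% of all ORF probes). Without array 1 the counts were 2 and 3. Besides SSC1, those that fell included SSZ1, LHS1 and SSB2, with means of -0.94, -0.93 and -0.89. SSB2 was lost without array 1 (adjusted p = 0.0557). SSE2, SSA4, SSA1 and SSQ1 rose, with means of 2.02, 0.81, 0.77 and 0.46. The call of SSA1 was lost without array 1 (adjusted p = 0.0668), and that of SSQ1 with any array left out (adjusted p 0.116 to 0.14). After heat shock SSE2 averaged 2.71 and SSA4 3.37.

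**Figure D3:**
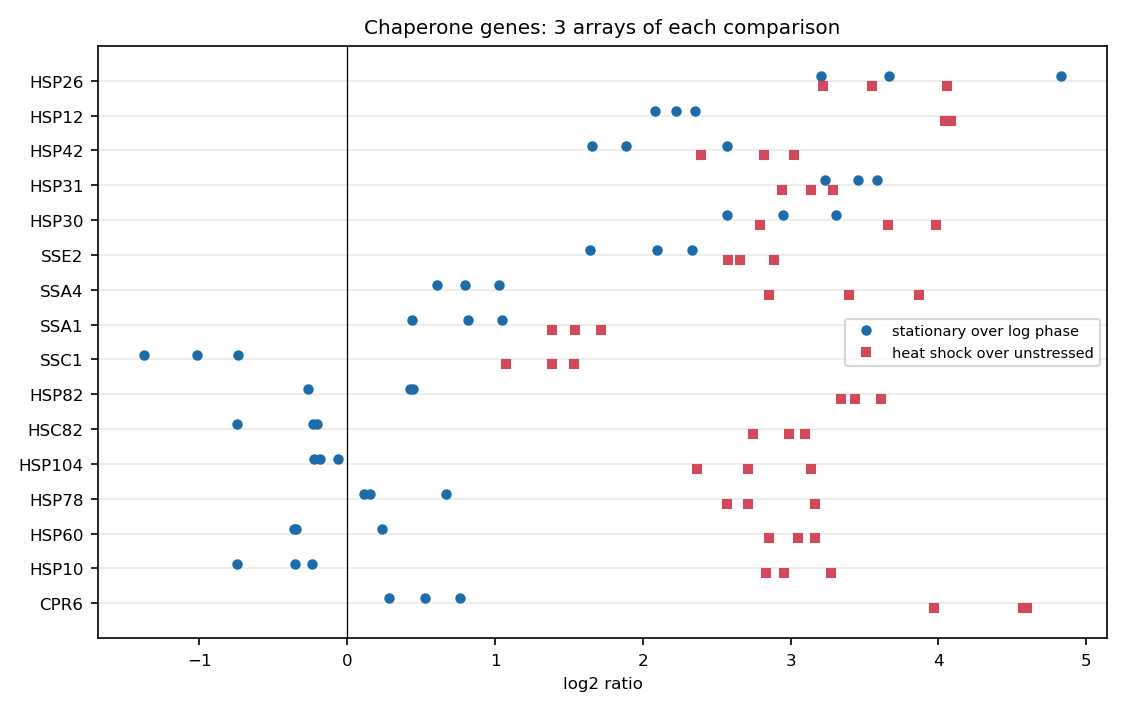
Log2 ratios of chaperone and other heat shock genes in stationary over log phase (circles, drawn above) and heat shock over unstressed (squares, drawn below). Each comparison has 3 arrays. HSP26, HSP31 and HSP30 overlap, whereas HSP82, HSC82, HSP104, HSP60, HSP10 and CPR6 lie within 1 of 0 in stationary phase and above 2 after heat shock.

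The machinery of translation fell. Of 137 cytosolic ribosomal protein genes 128 fell, 124 of them at least 2-fold, and 0 rose, with medians of -2.16, -2.16 and -2.26 on the 3 arrays. RPL3 had log2 ratios of -2.18, -1.89 and -2.34. RPS3 had -1.55, -0.50 and -0.53, and its call was lost without array 1 (adjusted p = 0.136). The 9 members that did not pass the test were RPS11A, RPL11A, RPS6B, RPL2A, RPL14B, RPS23B, RPL20B, RPS20 and RPL43B, with means between -0.61 and 0.32 (RPS11A passed without array 1, adjusted p = 0.0417). For 5 of them the heat shock arrays were far lower. RPL2A had -0.33, -0.07 and 0.05 in stationary phase and -3.63, -2.94 and -3.68 after heat shock (difference 3.30, adjusted p = 2.75e-10). RPL43B had 0.63, 0.01 and 0.31 in stationary phase and averaged -2.11 after heat shock. RPS20, RPL20B and RPL14B averaged 0.28, 0.22 and 0.05 in stationary phase and -2.26, -2.48 and -2.22 after heat shock. These 5 were picked by their lower heat shock values, so that the lack of overlap between the states follows from the choice. Whether the spots differed between arrays was not tested. Among all 137 members 19 were higher in stationary phase than after heat shock and 7 lower, against 11.0% and 8.53% of all ORF probes. Many ribosomal protein genes have a near-identical copy, and a probe may take up RNA of it, which was not tested. In stationary phase the partners of 4 of the 5 genes lay far lower. RPL2B had a mean of -2.50, RPL43A of -2.57, RPL20A of -2.35 and RPL14A of -2.89. After heat shock these partners averaged -2.89, -2.45, -2.82 and -2.81.

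**Figure D4:**
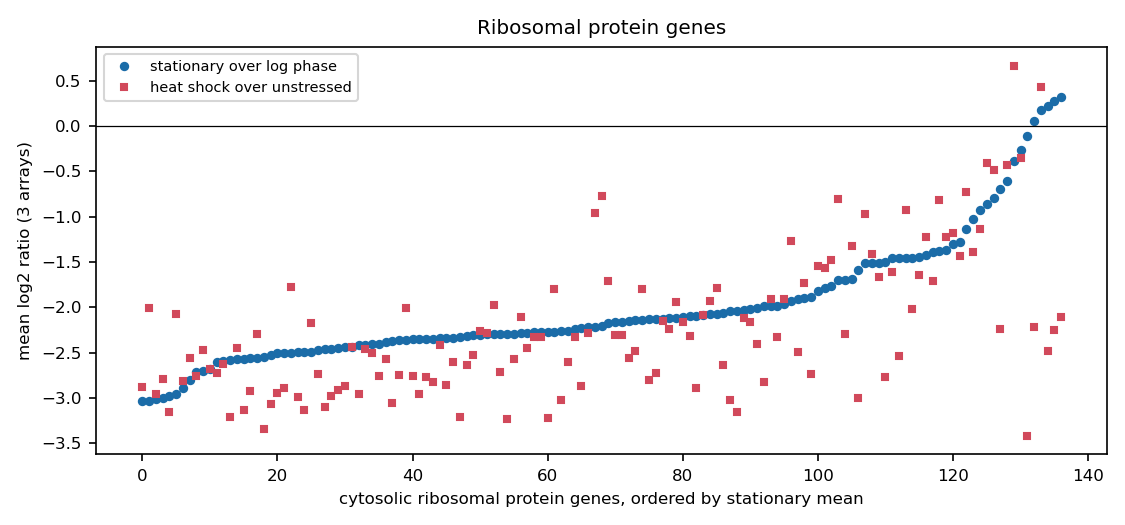
Mean log2 ratio of 3 arrays for each of the 137 cytosolic ribosomal protein genes in stationary over log phase (circles) and heat shock over unstressed (squares), in order of the stationary mean. The right end holds the 9 genes that did not pass the test in stationary phase, 5 of which lie below -2 after heat shock.

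Other parts of growth fell less. Of 34 translation factor genes 26 fell and 0 rose (median -0.972), with TEF4, elongation factor 1B gamma, at -2.60, -2.03 and -2.59. Both eIF5A genes fell, HYP2 with a mean of -1.49 and ANB1 with -1.34, whereas they averaged -0.09 and 0.08 after heat shock; the 2 are close in sequence. Of 20 aminoacyl-tRNA synthetase genes 16 fell (median -0.944), GRS1 with a mean of -1.66. Of 96 ribosome biogenesis genes 53 fell (median -0.609), with the box C/D core genes NOP56 at -2.16, -1.87 and -2.68 and NOP58 at -1.62 on average, and 26 fell without array 1 and 28 without array 3. Among 68 genes of the mitochondrial ribosome 32 fell and 0 rose (median -0.44), and 20, 24 and 18 fell without arrays 1, 2 and 3. The same genes had a median of -0.0457 after heat shock. Of these 17 were lower in stationary phase than after heat shock, against 8.53% of all ORF probes. MRPL39 had -0.99, -1.57 and -1.08. Of 27 genes of purine and pyrimidine synthesis 9 fell and 5 rose (33.3% and 18.5%, against 17.7% and 17.6% of all ORF probes). Those that rose were ADE17, ADE4, ADE12, ADE3 and ADE8 of the purine pathway, with means of 1.08, 1.06, 1.03, 0.94 and 0.54 (ADE8 was lost without array 1, adjusted p = 0.223, and without array 2, adjusted p = 0.0676). URA1, dihydroorotate dehydrogenase of pyrimidine synthesis, had -2.96, -2.85 and -3.00, and averaged -2.90 after heat shock. Of 33 proteasome genes 8 fell (24.2%, against 17.7% of all ORF probes) and 1 rose, and 4, 4 and 1 fell without arrays 1, 2 and 3.

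Of 29 genes of glucose and protein kinase A signalling 8 rose and 2 fell. These are 27.6% and 6.9%, against 17.6% and 17.7% of all ORF probes, and without array 1 the counts were 4 and 1. MSN4, a stress transcription factor, had log2 ratios of 2.19, 2.31 and 1.90, its partner MSN2 averaged 1.04 and the kinase gene YAK1 1.23, and MSN4 averaged -0.47 after heat shock. The 2 that fell were HXK2, described above with the hexokinases, and SNF4, the gamma subunit of the Snf1 kinase, with a mean of -0.61, which was lost with any of the 3 arrays left out (adjusted p 0.05 to 0.0812). Of 35 pheromone response and mating genes 20 rose and 3 fell, and 13 rose and 1 fell without array 1. KAR4, a transcription factor of mating, had 2.15, 2.74 and 1.74, and STE2, the receptor of alpha factor, and AGA2, the agglutinin subunit of a cells, averaged 2.02 and 1.88. MFA2, a gene of a factor, fell, with -1.36, -0.80 and -1.06. MF(ALPHA)2 and STE3 also fell, with means of -0.88 and -0.48. MF(ALPHA)2 was lost without array 1 (adjusted p = 0.0667) and array 2 (adjusted p = 0.0517), and STE3 with any array left out (adjusted p 0.11 to 0.128). In the cell wall list 6 of 30 rose and 6 fell, close to the 17.6% and 17.7% of all ORF probes, with UTR2, a chitin transglycosylase, at a mean of -2.29 and SPI1 at 2.12. Of 28 autophagy and vacuolar protease genes 11 rose and 1 fell, with the vacuolar aminopeptidase gene APE1 at 2.37, 2.11 and 2.04 and ATG19, which carries it to the vacuole, at 2.24, 1.60 and 1.74. Of 23 iron regulon genes 13 rose and 1 fell, and 8 rose without array 1 and 8 without array 2. ARN1, a siderophore transporter, had 2.37, 3.48 and 1.90, and TIS11, an mRNA-decay factor of iron starvation, had 2.38, 2.70 and 2.66. TIS11 averaged 0.24 and ARN1 -0.22 after heat shock.

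Of 11 histone genes 4 fell, against 17.7% of all ORF probes, HTB2 with log2 ratios of -0.67, -1.21 and -0.87 and HHF1 with -0.58, -0.89 and -0.77, and HHF2 and HTZ1 averaged -0.60 and -0.59. HHF2 was lost without arrays 2 and 3 (adjusted p = 0.0836 and 0.0885) and HTZ1 without arrays 1 and 2 (adjusted p = 0.0862 and 0.0518), and 2 histone genes in all fell without array 2. The other 7 histone genes did not pass the test. Of these HHT1 and HHT2 were above 0 on each array, with means of 0.46 and 0.36, and the rest had means between -0.43 and -0.11. HHT1 passed as higher without centring and with centring on ORF probes. HHF1 and HHF2 encode the same H4 protein and their probes may share RNA. SNF2, the ATPase of SWI/SNF, had -0.23, 0.17 and -0.06 and did not pass the test. SNF5, of the same complex, had -0.21, -1.69 and -0.70 and was lost without array 2 (adjusted p = 0.103). Of 31 remodelling genes 7 fell (22.6%, near the 17.7% of all ORF probes) and 1 rose, and 3 fell without array 1 and 3 without array 3.

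H4 and acetylated H4 at promoters were measured on other arrays than the mRNA. Over all 13027 probes with values, 386 passed the test for H4 (2.96%), 303 higher (2.33%) and 83 lower (0.637%), and 2685 for acetylated H4 (20.6%), 1109 higher (8.51%) and 1576 lower (12.1%). Without H4 array 1 no probe passed for H4 (limma, 2487 probes at an unadjusted p under 0.05), and without array 2 there were 22. Intergenic probes were placed by name, and 4072 of them were at a promoter, where 1.99% passed for H4, 1.74% higher and 0.246% lower, and 18.1% for acetylated H4. The H4 median on the 3 arrays over the 293 promoter probes of genes at least 2-fold lower was 0.0873, 0.0957 and 0.148, against -0.0227, 0.00726 and 0.0116 over the 3377 other promoter probes. The difference averaged 0.112 ± 0.024 (SD, n = 3), and 0.0254 once the ribosomal protein genes were taken out, an alternative chosen after seeing the data. Acetylated H4 at the genes at least 2-fold lower differed from other promoters by -0.0248 ± 0.021, and by -0.0784 without the ribosomal protein genes. For the 397 promoter probes of genes at least 2-fold higher the difference was -0.0367 ± 0.037. Acetylated H4 at the 397 had medians of 0.233, 0.170 and 0.353, against 0.0616, 0.0848 and 0.205 at other promoters, higher on each of the 3 arrays by 0.135 ± 0.045 on average. At single probes, 83 of the 397 (20.9%) rose in acetylated H4 and 29 fell (7.30%), against 10.6% and 6.25% of other promoter probes, with 11.6% higher and 6.46% lower over all promoter probes. Over 5079 genes the mRNA change had a correlation of -0.131 with the H4 change and 0.0604 with that of acetylated H4 at the promoter, given as a description. GTT2, with raised mRNA, had acetylated H4 at 1.15, 1.00 and 0.83 at a promoter probe shared with its neighbour, and BIO3 and BIO4 had -1.45, -1.40 and -0.87 at the probe between them (adjusted p = 0.0142 for each). The 2685 acetylated H4 calls became 1340, 1023 and 678 without arrays 1, 2 and 3.

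**Figure D5:**
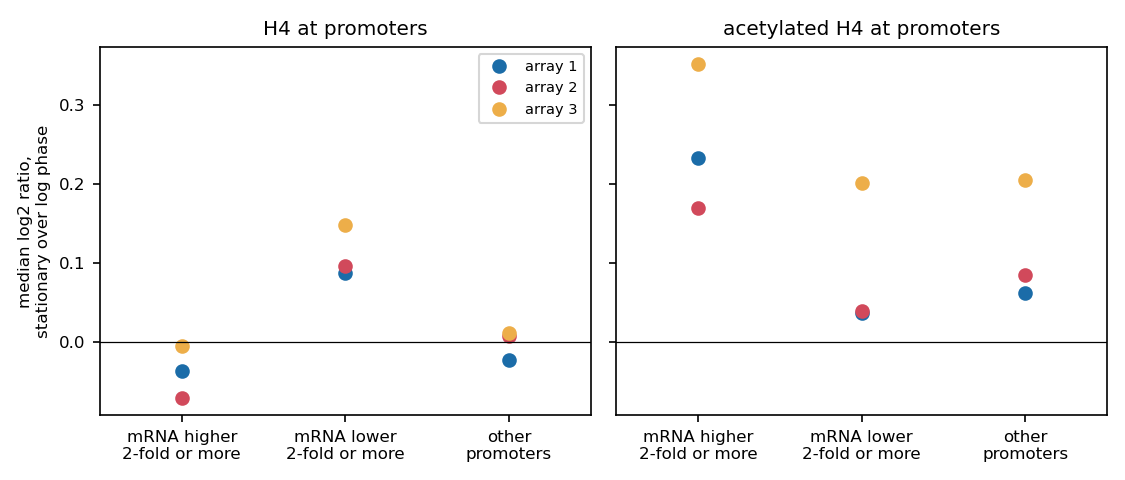
Median log2 ratio (stationary over log phase) of H4 (left) and acetylated H4 (right) on each of 3 arrays over promoter probes of genes with mRNA at least 2-fold higher, at least 2-fold lower, and of other promoters. H4 is highest at the genes with lower mRNA, and acetylated H4 at the genes with higher mRNA.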

How the data were processed

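The deposited values were log2 ratios of Cy5 over Cy3, 1 column per array; the base was read from the values, since for ratios under 0.5, base 2 gave thousandths whole to within 0.02 in 100% (base e 6.19%, base 10 3.78%). How the authors scaled, filtered or background-corrected the arrays is not given in the sources used here. 0 columns had no sample. Arrays have no read depth, and their number limits the precision. The median over all probes of an array was subtracted from it. ORF probes (6269, of which 5777 matched the R64 annotation) were tested two-sided against 0 in limma (version 3.58.1, R 4.3.3; linear fit and moderated variance), with Benjamini-Hochberg adjustment over all of them. The stationary minus heat shock difference came from a fit of both groups. Tables were made with Python 3.11.15 and pandas 2.3.3. Intergenic probes were placed to the right of the ORF they are named for, in the gene order of R64, and counted as a promoter where a neighbouring gene starts there.

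In simulated data with 6269 genes, a small share was given a change and all others none. There the test of stationary against log recovered 49% of genes changed by 1 and 87% changed by 2 on the log2 scale. That of the difference recovered 51% and 79%. Far more genes passed in the data (35.3%), which alters the adjustment of p, so these shares do not measure the recovery in the data. Members, lists and rules were chosen with earlier results of these data known. In the lists, 2 mis-mapped names were corrected after values had been seen (VMA16 in the V-ATPase list and DUR12 in the nitrogen list), and 3 names were not on the array. RPP1, an RNase P subunit, and MRP8, which is no ribosomal protein, matched the symbol patterns of the ribosomal lists and were taken out after values had been seen. Named genes were drawn from the 15 largest rises and falls, and the 10 largest differences from heat shock each way among genes whose groups did not overlap. Further sources were the 6 largest changes and contrary calls of each described list, and members of lists of at most 12. Members of 17 paralog families and a fixed set were also used. Not every gene that these rules admit is named, and others are said to be chosen after their values were seen. The 50 lists are described by counts and medians, with no list test. Same-numbered arrays of stationary phase and heat shock were checked for pairing. Their deviations correlated at -0.0572, 0.0683 and 0.181, against at most 0.102, -0.00105 and 0.0526 with arrays of other numbers. The same number was higher for sets 2 and 3 but not for set 1, so pairing was not settled, and the main fit did not pair them. Promoter sequences were not used here. The values of 1 gene of a described list are not reported here.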

Additional observations from a re-analysis of the deposited data

Results flagged for a closer look

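The stationary and heat shock changes of 20 genes differed by the test of the difference (limma, Benjamini-Hochberg over 6269 ORF probes), with no overlap between the 3 arrays of each group. These were the 10 largest differences each way among genes that passed and whose groups did not overlap, so the lack of overlap was set by the choice. In all, 690 passed as higher (11.0%) and 535 as lower (8.53%). Higher in stationary phase, as log2 differences, were VHT1 at 4.39, ATR1 at 4.34, ARO5 at 4.26, MET2 at 4.23, MET10 at 4.16, ARG4 at 4.02, AAD6 at 3.95, ARG1 at 3.91, MET1 at 3.79 and AGA1 at 3.74. Lower in stationary phase were CWP1 at -5.14, CPR6 at -3.86, CYC7 at -3.54, HSP10 at -3.47, HSC82 at -3.34, YLR217W at -3.29, RGI1 at -3.28, HSP82 at -3.26, HSP60 at -3.18 and CAR1 at -3.10. YLR217W lies against CPR6 and is not in the annotation used, so the 2 signals cannot be told apart. CWP1, a cell wall mannoprotein, averaged -4.37 in stationary phase and 0.77 after heat shock.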

How the results depend on the processing

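Values without centring, centred on ORF probes, scaled to 1 median absolute deviation, with robust eBayes and with probes measured on all 3 arrays left the counts of mRNA calls within 1.5 times of the reported ones. Of 295 named genes that were called, 216 kept their call and direction under every alternative. With 1 array left out in turn, the calls of mRNA were 1284 to 2158, higher 637 to 1043 and lower 647 to 1115, and at least 2-fold 842 to 920, higher 440 to 507 and lower 335 to 452. The difference from heat shock gave 828 to 1153 calls, higher 452 to 706 and lower 368 to 517, and 1180 with the set number as a replicate block (673 higher and 507 lower). H4 gave 0 to 331 calls (limma, 2487 probes at an unadjusted p of 0.05 without array 1, where the count was 0), higher 0 to 227 and lower 0 to 104. Acetylated H4 gave 678 to 1340, higher 152 to 371 and lower 526 to 969. Of 250 recomputed list medians 16 moved by more than the spread between arrays or changed sign, each with 1 array left out, and 2 of the 16 changed sign: gluconeogenesis (-0.0948) was -0.126 to 0.00231, and histone acetylation enzymes (-0.0705) were -0.108 to 0.0275. The H4 difference at genes lower, reported as 0.112, was 0.0309 over all called genes and 0.0254 without ribosomal protein genes, and that of acetylated H4, reported as -0.0248, was -0.0784 without ribosomal protein genes. The cause of these shifts was not tested. The planned promoter motif count was not run, since promoter sequences were not used here.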

Other observations

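Probes outside the ORFs gave further values. All 13 probes of ribosomal DNA averaged below 0, between -2.35 and -0.362 on the log2 scale, and 12 were below 0 on each array. Of 11 intron probes of ribosomal protein genes all 11 lay above the ORF probe of their gene on each of the 3 arrays, with a median of -0.422 for introns and -2.16 for ORFs. RPS9A had 0.14, 0.03 and 0.14 at its intron probe and -2.23, -2.16 and -2.42 at its ORF probe, and RPL28 had 0.39, 0.40 and 0.33 at its intron probe and -1.86, -1.60 and -1.63 at its ORF probe. Of 10 other intron probes, 5 lay above the ORF probe on each array. The 55 probes of mitochondrial genome ORFs had medians of -0.242, -0.0944 and -0.237. Of 244 genes within 20 kb of a chromosome end, judged by the annotated genes, 56 rose and 10 fell, against 17.6% and 17.7% of all ORF probes, and 35 rose without array 1 and 17 fell without array 2. No cause of these values was tested.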
